A study of Mus musculus with 2 samples.

Results

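The subject is 9 serpin genes, Serpinb1a, Serpinb1b, Serpinb2, Serpinb6a, Serpinb8, Serpinb9, Serpine2, Serpinf1 and Serping1, in mouse bone marrow progenitors transformed by Hoxa9 and Meis1. Members are the rows of the authors' Cuffdiff table whose gene name equals one of these symbols, and they are 9 of the 62 rows with a serpin name analysed here and of 23235 rows in all. RNA was sequenced from 2 conditions of the same kind of culture. In the EtOH condition, 4-hydroxytamoxifen (4OHT) was washed out and the cells were grown in ethanol, the solvent, for 72 h, which removes Hoxa9-ER from the nucleus. In the 4OHT condition, the washed cells were returned to 100 nM 4OHT for the same 72 h and keep nuclear Hoxa9-ER. The labels of the conditions differ in the treatment alone, 100 nM 4OHT or ethanol. Lineage-depleted C57B6 marrow had been infected with a MIGR1 retrovirus for HA-tagged Hoxa9-ER, a fusion of Hoxa9 with the hormone-binding domain of the estrogen receptor, and with another for Flag-tagged Meis1, and had been transformed by continuous culture with IL3 and 4OHT. Expression is driven by the virus and not by the Hoxa9 gene's own promoter, and how many independent cultures or clones were used is not given in the sources used here.

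Serpins are protease inhibitors that work once. The target protease cuts an exposed loop of the serpin, the serpin snaps into another shape, and both are trapped in one dead complex. Clade B serpins stay inside the cell and protect it from proteases that leak from its own granules, which makes them prominent in myeloid cells and cytotoxic lymphocytes. Members of other clades are mostly secreted and act on clotting, plasminogen activation and complement.

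Each condition has 1 FPKM value per gene (mapped fragments scaled to transcript length and to the size of the library), which stands for 2 biological replicates, so no value below has a replicate error and no test of this work could be run. The sources used here do not give how the authors' test combined the 2 replicates. Whether their q-values hold the spread between replicates is therefore not known. "Rose" and "fell" mean that the authors' deposited table gives a q-value of at most 0.05, "called" means the same, and log2 changes are log2((FPKM EtOH + 1)/(FPKM 4OHT + 1)), positive where EtOH is higher and too small for low genes. FPKM does not give read totals, but low values fall on steps. For genes with 1 transcript of 1000 to 4000 bases, the lowest step read of FPKM times length in kb had a median of 0.0232 in EtOH (134 genes) and 0.0216 in 4OHT (131 genes). That amounts to some 43.02 fragments for each FPKM and kb in EtOH and 46.4 in 4OHT if 1 step is 1 fragment. In 4OHT, 5 further genes lay above 0 but below the range read for this step. Hoxa9 RNA stood at 892 FPKM in EtOH and 476 FPKM in 4OHT, and Meis1 RNA at 418 FPKM in EtOH and 242 FPKM in 4OHT. Neither level shows where the fusion protein was.

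Of the 9 genes, 3 rose after 4OHT withdrawal, 3 fell, and 3 were not tested by the authors, all of them below 0.2 FPKM. Serpinb2 rose most and Serpine2 fell most on the log2 scale, while Serpinb1a was by far the most abundant in both conditions. All 6 members that were tested were called, 3 in each direction. Among all 11865 rows tested, 22.5% were called, 12% higher and 10.5% lower in EtOH. The members were picked with earlier results of these data known, so their share is given as a description only. Their median log2 change was 0.48 over the 5 members of at least 1 FPKM in either condition and 0.11 over all 9, and the median over the 11022 rows of at least 1 FPKM was -0.06.

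**Figure D1:**
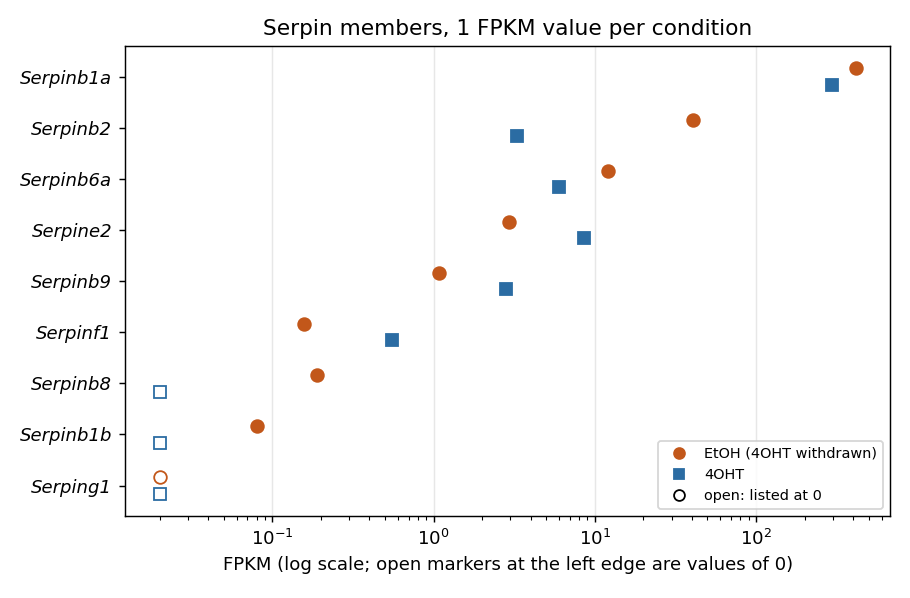
FPKM of the 9 serpin genes on a log axis, circles for EtOH and squares for 4OHT, 1 value per condition and no error bar. Serpinb1a lies at 415 in EtOH and 296 in 4OHT, far right of the others, and open markers at the left edge are values listed at 0.

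The promoters of 3 members are shown because, by log2 change, they belong to the largest rise (Serpinb2), the largest fall (Serpine2) and a smaller rise (Serpinb6a). By plain ratio Serpinf1 fell further, with 4OHT 3.51 times as high as EtOH, against 2.92 times for Serpine2. They are the 250 bases before the annotated start, 5′ to 3′ on the gene's strand, from RefSeq on GRCm38.p6, and capitals mark motif matches. Serpinb2 lies at chr1:107511173-107511422 on the plus strand, Serpinb6a at chr13:34002795-34003044 on the minus strand and Serpine2 at chr1:79858666-79858915 on the minus strand. RefSeq gives another start for Serpinb2 and for Serpinb6a, which are not printed.
Serpinb2: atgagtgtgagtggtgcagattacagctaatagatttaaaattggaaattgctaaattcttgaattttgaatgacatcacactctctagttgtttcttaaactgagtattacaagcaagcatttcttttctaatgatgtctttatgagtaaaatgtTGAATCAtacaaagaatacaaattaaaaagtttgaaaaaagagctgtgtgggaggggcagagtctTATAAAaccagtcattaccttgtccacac
Serpinb6a: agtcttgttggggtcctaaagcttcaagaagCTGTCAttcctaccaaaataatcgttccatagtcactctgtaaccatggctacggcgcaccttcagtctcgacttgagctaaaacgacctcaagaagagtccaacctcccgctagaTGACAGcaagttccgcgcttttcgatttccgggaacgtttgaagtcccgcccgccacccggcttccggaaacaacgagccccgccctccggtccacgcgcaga
Serpine2: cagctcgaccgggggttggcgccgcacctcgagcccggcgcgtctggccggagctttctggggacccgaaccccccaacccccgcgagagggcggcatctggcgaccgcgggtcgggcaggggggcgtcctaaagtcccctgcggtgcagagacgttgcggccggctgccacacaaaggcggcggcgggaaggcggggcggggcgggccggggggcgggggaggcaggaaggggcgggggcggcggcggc
These motifs were searched on both strands: TGATTNAT (Pbx with Hox), TGACAG (Meis), TTGCNNCAA (C/EBP), TGANTCA (AP-1) and GAGGAA (PU.1). TATAAA was searched on the gene's strand only. Serpinb2 holds TGAATCA starting 94 bases before the start and TATAAA starting 29 bases before it. Windows with an AP-1 match make up 6.75% of all 32851 promoters, and windows with TATAAA 7.59%. The Serpinb6a window holds the Meis letters in both orientations, CTGTCA from base 219 and TGACAG from base 103 before the start, and 15.9% of all promoters hold at least 1 such match. The window at the other Serpinb6a start holds none of the motifs, and that at the other Serpinb2 start overlaps the printed one and holds the same AP-1 and TATAAA matches. The Serpine2 window holds none of these motifs. Promoters of 7 of the 9 members were found, in 9 windows, while those of Serpinb1a and Serping1 were not available and were not searched. The window of Serpinb8, a member not tested, also holds an AP-1 match, TGAGTCA starting 23 bases before the start. The Serpinb1b window holds the PU.1 letters in both orientations, and 23.3% of all promoters hold at least 1 such match. None of the 9 windows holds the Pbx with Hox or the C/EBP letters, which occur in 2.82% and 1.74% of all promoters. A match says only that these letters are in the window.

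Serpinb1a, the leukocyte elastase inhibitor, blocks the neutrophil proteases elastase, proteinase 3 and cathepsin G. It had 415 FPKM in EtOH and 296 FPKM in 4OHT, which made it the 202nd most abundant row in EtOH and the 268th in 4OHT. It rose 1.40-fold (log2 change 0.48, q = 0.0115 in the authors' deposited table). In that table a second call asks for a ratio of at least 1.5 as well, and Serpinb1a did not pass it. The gene lies at chromosome 13, 32933961 to 32943054 (mm9), and shares 2.81% of its 50-base words with other genes' transcripts, mostly Serpinb1c. It held 66.7% of the FPKM of the 62 serpin rows in EtOH and 58.1% in 4OHT.

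Serpinb1b, a mouse copy of the same gene on chromosome 13, was close to silent. It had 0.0809 FPKM in EtOH and was listed at 0 in 4OHT, or about 5.90 fragments in EtOH if they came from its longest transcript of 1696 bases. The authors did not test it. At that length, 3 fragments would be 0.0381 FPKM in 4OHT. Serpinb1b shares 3.09% of its words, 2.34% with the far more abundant Serpinb1a. Whether reads of Serpinb1a enter its value was not tested.

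Serpinb2, or plasminogen activator inhibitor type 2, blocks urokinase and is well known as a gene that monocytes and macrophages switch on. It had 40.5 FPKM in EtOH and 3.29 FPKM in 4OHT, a 12.3-fold rise with a log2 change of 3.27. Its q-value is listed as 0 in the authors' deposited table. Serpinb2 was the 2111th most abundant row in EtOH and the 9058th in 4OHT. Of the 11022 rows of at least 1 FPKM, 5.11% were at least 2-fold higher in EtOH on the log2(FPKM + 1) scale, and Serpinb2 was the single member that far up. It lies at chromosome 1, 109408000 to 109422177 (mm9), and 10.4% of its words also occur in transcripts of the neighbour Serpinb10.

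Serpinb6a, which corresponds to the human cathepsin G inhibitor SERPINB6, had 12.0009 FPKM in EtOH and 6.02 FPKM in 4OHT. It rose 1.99-fold (log2 change 0.89, q = 0.0183 in the authors' deposited table). Its level is uncertain because of shared sequence. Its locus on chromosome 13, 34009787 to 34094663 (mm9), overlaps Nqo2, at 12.3 FPKM in EtOH and 8.54 FPKM in 4OHT, and 25.1% of its words are shared, 12.5% with Nqo2. How the authors' counting split such reads is not given in the sources used here.

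Serpinb9 is the inhibitor of granzyme B, with which cytotoxic cells kill, and protects cells that carry or meet that protease. It had 1.08 FPKM in EtOH and 2.82 FPKM in 4OHT. It fell, with 4OHT 2.63 times as high as EtOH (log2 change -0.88, q = 3.68e-05 in the authors' deposited table). The estimate of fragments is 161 in EtOH and 455 in 4OHT. Serpinb9 lies on chromosome 13, 33096410 to 33109824 (mm9), between Serpinb1a and Serpinb1b, and shares 0.378% of its words.

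Serpinb8, whose human form inhibits the processing enzyme furin, had 0.190 FPKM in EtOH and was listed at 0 in 4OHT. It was not tested. The value in EtOH corresponds to about 37.5 fragments if all came from its longest transcript of 4581 bases, and to fewer for its shorter ones. Serpinb8 and Serpinb1b are thus the members listed above 0 in EtOH alone, both below 1 FPKM.

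Serpine2, or protease nexin 1, is a secreted inhibitor of thrombin, urokinase and plasmin. It had 2.95 FPKM in EtOH and 8.61 FPKM in 4OHT. It fell, with 4OHT 2.92 times as high as EtOH (log2 change -1.28, q = 3.4e-08 in the authors' deposited table). At least 2-fold falls on the log2(FPKM + 1) scale were made by 2.38% of the rows of at least 1 FPKM, and Serpine2 was the single member among them. Its locus is chromosome 1, 79790896 to 79855240 (mm9), outside the clade B cluster of that chromosome.

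Serpinf1, the pigment epithelium-derived factor, has the serpin fold but does not inhibit proteases. It had 0.158 FPKM in EtOH and 0.553 FPKM in 4OHT, or about 12.4 and 47.04 fragments of its longest transcript in EtOH and in 4OHT. It fell, with 4OHT 3.51 times as high as EtOH, at q = 0.0401 in the authors' deposited table, and the log2 change of -0.42 understates this at such low levels. Serping1, the C1 inhibitor of the complement and contact systems, was listed at 0 in both conditions. For a transcript of 1768 bases, 3 fragments would be 0.0394 FPKM in EtOH and 0.0366 FPKM in 4OHT.

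**Figure D2:**
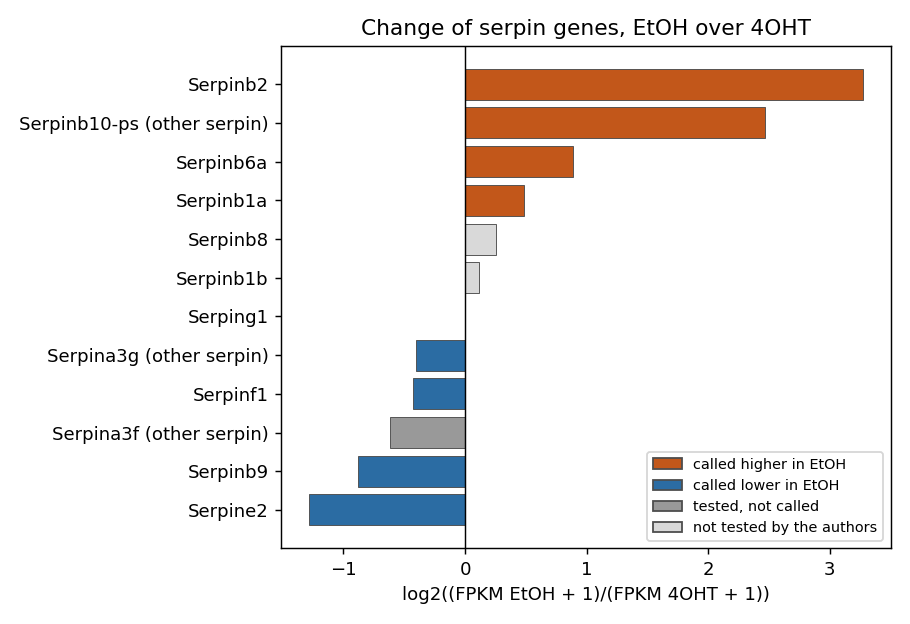
Log2 change, EtOH over 4OHT, of the 9 members and of the 3 other serpins analysed here with at least 1 FPKM, coloured by the call in the authors' deposited table. Serpinb2 (3.27) and Serpinb10-ps (2.47) stand apart at the top, and Serpine2 (-1.28) is at the bottom.

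Of the family beyond these 9 genes, 53 rows were analysed here, of which 30 were listed at 0 in both conditions and 4 were tested. Of these 4, Serpinb10-ps rose, Serpina3g fell, and Serpina3f and Serpini1 were not called, beside 12% called higher and 10.5% lower among all rows tested. Serpinb10-ps, which RefSeq lists as an older symbol of Serpinb10, had 4.97 FPKM in EtOH and 0.0810 FPKM in 4OHT, a log2 change of 2.47 that rests on about 13.03 fragments in 4OHT. Its level is uncertain, because 6.97% of its words also occur in transcripts of the more abundant Serpinb2. Serpina3g, a mouse inhibitor of lysosomal cathepsins, fell to 141 FPKM in EtOH, against 187 FPKM in 4OHT (log2 change -0.40, q = 0.025 in the authors' deposited table). Serpina3f is listed with the same locus as Serpina3g, at 2.59 FPKM in EtOH and 4.51 FPKM in 4OHT, and 15.5% of the words of Serpina3g are shared with other genes, so the level of each is uncertain. Serpinb1a and Serpina3g together held 89.4% of the FPKM of the 62 serpin rows in EtOH and 94.7% in 4OHT. These rows summed to 622 FPKM in EtOH and 511 FPKM in 4OHT.

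Clade B serpins were called in both directions on chromosome 13, where 3 rows were tested. On chromosome 1, where 2 were tested, they were called in 1 direction. Beside this, 12% of all rows tested were called higher and 10.5% lower in EtOH. On chromosome 1 the clade B cluster has 12 rows. Of these, Serpinb2 and Serpinb10-ps, which lie 3.40 kb apart and share words, both rose. Serpinb8, a further 40.7 kb along, stayed below 1 FPKM, as did the other 9 rows of the cluster. On chromosome 13 the clade B rows number 15. There Serpinb1a and Serpinb6a rose and Serpinb9 fell, although Serpinb1a and Serpinb9 are 153 kb apart with both genes expressed. The clade A rows of chromosome 12 number 24, and of these only Serpina3g and Serpina3f reached 1 FPKM.

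**Figure D3:**
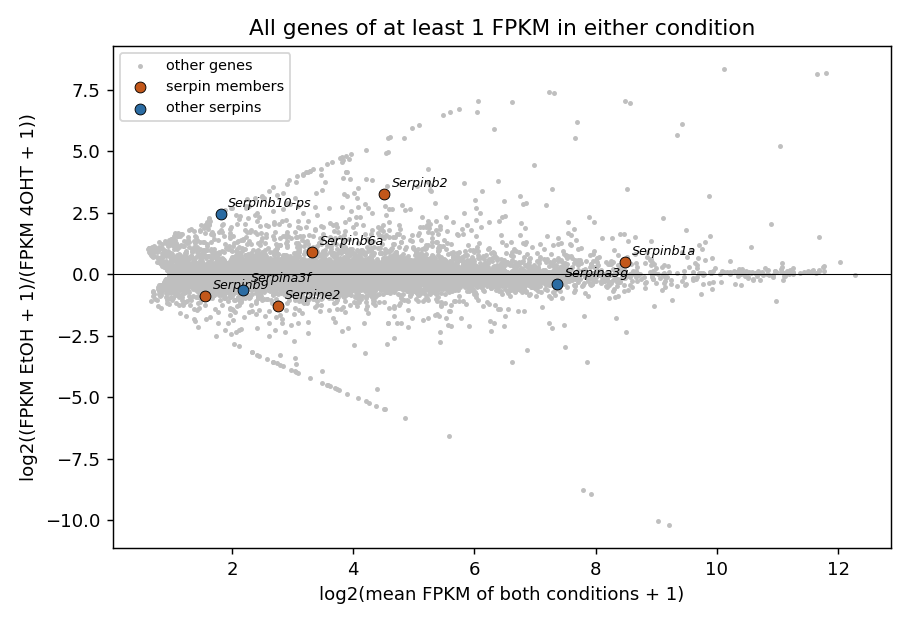
Log2 change, EtOH over 4OHT, against log2 of the mean FPKM of both conditions plus 1, for the 11022 genes that reach 1 FPKM in 1 condition or both (grey), with serpins marked. Serpinb1a and Serpina3g lie far right with small changes, while Serpinb2 lies high above most genes of its level.

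Of the granule proteases named above as serpin targets, Elane, Prtn3 and Gzmb rose and Ctsg fell. In a wider list of 21 genes of granule and mast cell proteases, which also holds proteases not named above as targets, 9 rose, 2 fell and 10 were not tested. Among all rows tested, 12% were called higher and 10.5% lower in EtOH. The list had a median log2 change of 1.60 over the 11 of at least 1 FPKM. Elane, neutrophil elastase, had 3047 FPKM in EtOH and 736 FPKM in 4OHT (log2 change 2.05), and Prtn3, proteinase 3, had 2068 FPKM in EtOH and 969 FPKM in 4OHT (log2 change 1.09). Ctsg, cathepsin G, went the other way, with 1291 FPKM in EtOH and 2722 FPKM in 4OHT (log2 change -1.08, q = 5.03e-09 in the authors' deposited table). Ctsc, a cysteine protease that activates these proteases by cutting them, also fell, with a log2 change of -0.38.

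The summed RNA of the 3 neutrophil proteases stood in a similar ratio to Serpinb1a in both conditions, a comparison without replicates. Elane, Prtn3 and Ctsg summed to 6406 FPKM in EtOH and 4427 FPKM in 4OHT, which is 15.4 times the Serpinb1a level in EtOH and 14.9 times in 4OHT. The parts of that sum moved apart. Elane was 7.34 times as high as Serpinb1a in EtOH and 2.48 times in 4OHT, while Ctsg was 3.11 times as high as Serpinb1a in EtOH and 9.18 times in 4OHT. Ctsg was 108 times as high as Serpinb6a in EtOH and 452 times in 4OHT. These are ratios of RNA per length and say nothing of protein.

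Gzmb, granzyme B, rose while its inhibitor Serpinb9 fell. Gzmb had 61.1 FPKM in EtOH and 13.8 FPKM in 4OHT (log2 change 2.07), which is 56.8 times the Serpinb9 level in EtOH and 4.89 times in 4OHT. Gzmb was the single granzyme of the list at or over 1 FPKM, with Gzma and Gzmk, chosen with their values in view, listed at 0 in both conditions. Among basophil and mast cell proteases, Mcpt8 had 1685 FPKM in EtOH and 183 FPKM in 4OHT, and the tryptase Tpsb2 had 242 FPKM in EtOH and 10.2 FPKM in 4OHT. Prss34 (1.55), Cma1 (1.60) and Tpsg1 (2.48) rose as well, the values being log2 changes. Prss57, a neutrophil serine protease, rose too (0.69), but 38.4% of its words also occur in transcripts of Fstl3, which leaves its level uncertain.

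**Figure D4:**
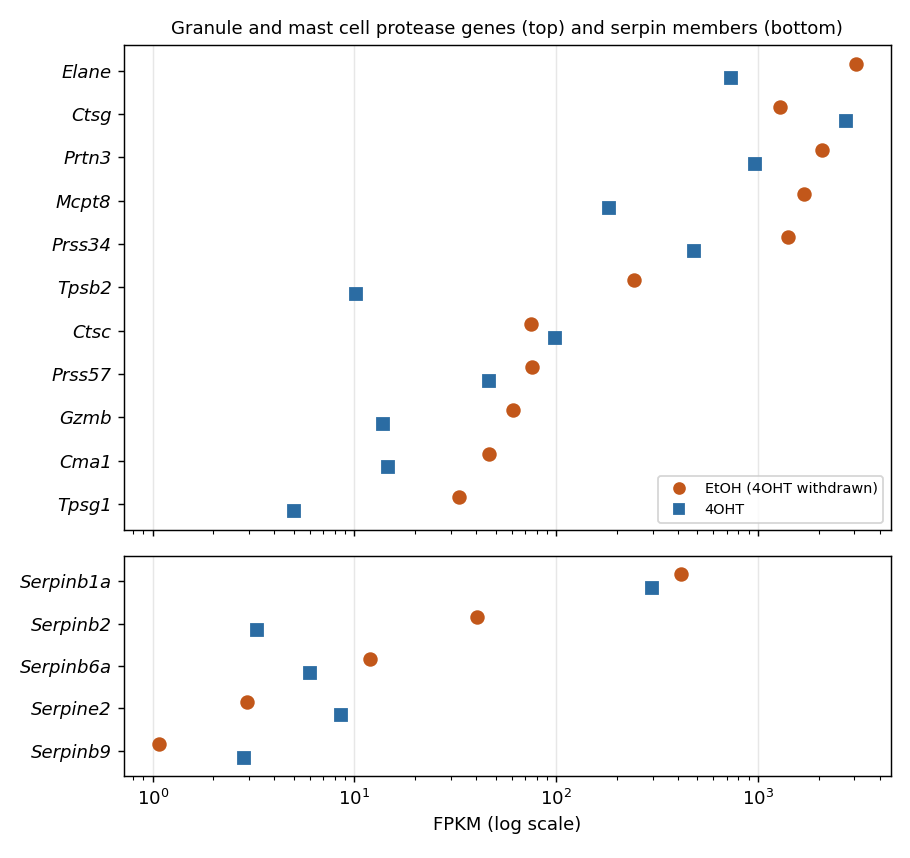
FPKM on a log axis of the 11 granule and mast cell protease genes of at least 1 FPKM (top) and of the 5 serpin members of at least 1 FPKM (bottom), circles for EtOH and squares for 4OHT. Elane, Prtn3 and Mcpt8 lie to the right in EtOH and Ctsg in 4OHT, and Serpinb2 and Serpinb6a lie to the right in EtOH, Serpine2 and Serpinb9 in 4OHT.

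Of the genes that Serpinb2 and Serpine2 act on or with, the receptor moved and the proteases were low. Plaur, the urokinase receptor, rose to 59.1 FPKM in EtOH, against 15.2 FPKM in 4OHT (log2 change 1.89). Urokinase itself, Plau, had 2.14 FPKM in EtOH and 1.62 FPKM in 4OHT and was not called, and Plat, Plg and F2, the genes of tissue plasminogen activator, plasminogen and thrombin, were listed at 0 in both conditions. Plau and those 3 genes lie outside the naming rule and were chosen with their values in view. Furin, the target of human SERPINB8, rose to 310 FPKM in EtOH, against 85.8 FPKM in 4OHT (log2 change 1.84). This list of 19 genes covers plasminogen activation, clotting and complement, and also holds Furin and related processing enzymes. In it 4 rose, Furin among them, none fell, 5 were not called and 10 were not tested. That stands beside 12% called higher and 10.5% called lower in EtOH among all rows tested. The median log2 change was 0.45 over the 8 genes of at least 1 FPKM, against -0.06 over all such rows. The other genes that rose were F10 (0.51), clotting factor X, and F2r (0.39), the thrombin receptor, given as log2 changes.

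Lysosomal cathepsins, which some serpins also bind, moved in both directions. Of 13 genes 5 rose, 1 fell, 6 were not called and 1 was not tested, beside 12% higher and 10.5% lower among all rows tested. The median log2 change over the 11 genes of at least 1 FPKM was -0.24, opposite in sign to most of the calls. Ctss had 7.01 FPKM in EtOH and 1.43 FPKM in 4OHT (log2 change 1.72), Ctse had a log2 change of 1.43, Ctsh of 1.00, Lgmn of 0.71 and Ctsb of 0.45. The gene that fell was Ctsl (-0.50). The most abundant, Ctsd, had 816 FPKM in EtOH and 1045 FPKM in 4OHT and was not called (q = 0.155 in the authors' deposited table).

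Protease inhibitors of other families were called in both directions too. Of 27 genes 7 rose, 3 fell, 5 were not called and 12 were not tested. The shares called among all rows tested were 12% higher and 10.5% lower in EtOH. The list had a median log2 change of 0.39 over the 13 genes of at least 1 FPKM, against -0.06 over all such rows. Wfdc21, a whey acidic protein domain gene listed as 1100001G20Rik, rose most, with 156 FPKM in EtOH and 1.61 FPKM in 4OHT. Cstb, the cathepsin inhibitor cystatin B, had 234 FPKM in EtOH and 98.3 FPKM in 4OHT (log2 change 1.25). Slpi, which inhibits elastase and cathepsin G as Serpinb1a does, rose 1.31-fold to 631 FPKM in EtOH, against 482 FPKM in 4OHT (q = 0.0386 in the authors' deposited table), and so stood above Serpinb1a in both conditions. Timp2 (1.66), Spint1 (1.04), Reck (0.81) and Cast (0.72) rose, and Itih5 (-0.87), Pebp1 (-0.69) and Tfpi (-0.68) fell, by log2 change. Cst3, Cst7 and Spint2, between 169.5 and 386 FPKM in both conditions, were not called.

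Receptors that clear serpin complexes, and other partners, numbered 9. Of these 1 rose, 2 fell, 4 were not called and 2 were not tested, beside 22.5% called among all rows tested, and the median log2 change was -0.12 over the 7 of at least 1 FPKM. Vldlr, a receptor of serpin complexes, fell to 13.7 FPKM in EtOH, against 23.6 FPKM in 4OHT (log2 change -0.74). Pnpla2, a lipase that binds the Serpinf1 protein, fell as well, to 47.5 FPKM in EtOH, against 80.0 FPKM in 4OHT (-0.74). Sorl1 rose (0.60).

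Most markers in a list of progenitor and myeloid genes were also called, beside 22.5% called among all rows tested. In these bulk samples, more cells of a type and more RNA per cell cannot be told apart. Of 6 progenitor and myeloid genes, Itgam (2.71), Mpo (2.29), Cd33 (2.00) and Ptprc (0.91) rose, Cd34 (-1.42) fell and Kit (0.41) was not called, by log2 change, and the list summed to 1243 FPKM in EtOH and 390.3 FPKM in 4OHT. Mpo was the largest part of both sums, at 918 FPKM in EtOH and 186 FPKM in 4OHT. Kit had 10.1 FPKM in EtOH and 7.39 FPKM in 4OHT, and Cd34 had 45.8 FPKM in EtOH and 124 FPKM in 4OHT, so defining markers of the labelled progenitors were present in both. Stromal cells also make Serpine2 and Serpinf1. The 10 stromal and fibroblast markers summed to 219 FPKM in EtOH and 426 FPKM in 4OHT, nearly all of it Thy1, with Pdgfrb at 1.74 FPKM in EtOH and 7.99 FPKM in 4OHT. Both fell. Col3a1, Pdgfra, Cxcl12, Dcn and Lum were listed at 0 in both conditions, and Col1a1, Col1a2 and Lepr lay below 0.2 FPKM.

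Other cell types gave little RNA or moved in their own way. The 8 erythroid entries summed to 105 FPKM in EtOH and 286 FPKM in 4OHT. Of these entries 3 fell, 1 rose and Slc4a1 was listed at 0 in both conditions, beside 22.5% called among all rows tested. The fallen ones include the Hbb-b1 and Hbb-b2 entries, which are listed with the same locus. The risen one, Klf1, stayed below 1 FPKM. Megakaryocyte markers, 6 in all, summed to 93.01 FPKM in EtOH and 103 FPKM in 4OHT, with Pf4 the single one that fell. Most of both sums was Itga2b, at 76.0 FPKM in EtOH and 79.7 FPKM in 4OHT, which was not called. Endothelial markers (6) summed to 1.51 FPKM in EtOH and 0.315 FPKM in 4OHT, with Tek and Emcn at 0 in both and Vwf risen. The 7 T and NK cell markers summed to 0.267 FPKM in EtOH and 0.129 FPKM in 4OHT, with Cd3e, Cd3g and Cd4 at 0 in both. The 6 B cell markers summed to 1.72 FPKM in EtOH and 1.13 FPKM in 4OHT, with Ms4a1, Pax5 and Ebf1 at 0 in both. The part of any of these cell types in the serpin values was not tested.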

How the data were processed

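RNA sequencing of 2 conditions, EtOH and 4OHT, was used, and each condition is 1 sample of 2 biological replicates. Per the submitters' processing notes, the tools were CASAVA (1.8.2), the aligner Bowtie2 (2.0.0.7) and, for the comparison, Cuffdiff (2.0.2), on mm9. The annotation, the strand setting and the scaling are not stated there. Per the file headers, the deposited table holds the authors' FPKM value per condition, the p-value of their test with its q-value, and a fold ratio of EtOH over 4OHT. Recomputed with the Benjamini-Hochberg method over 11865 tested rows, q came within 1.7e-06 of the deposited value. The q-value, not a test of this work, gives every call. As a share of the library, FPKM of 1 gene drops when other RNAs take more of it.

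With Python 3.11.15, log2 changes used a pseudocount of 1. Words of 50 bases were compared with all GENCODE M21 transcripts, strand ignored, for 25 genes, all found. Steps of FPKM times length were read from 0.015 to 0.03, a window set after seeing the values. Gap values from 0.03 to 0.04 held 10 genes in EtOH and 14 in 4OHT. Values above 0 but below the window held 0 genes in EtOH and 5 in 4OHT. Deposited starts were raised by 1 base. The members and lists (138 entries) were chosen with earlier results of these data known. Named genes were the members, other serpins of at least 1 FPKM, called list members of at least 1 FPKM, uncalled ones of at least 10 FPKM, and Hoxa9 and Meis1, with the cell type markers beside them. Some serpin results are not reported here. The fold step was tested on simulated data. With 1 sample per condition, no replicate could be left out.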

Additional observations from a re-analysis of the deposited data

How the results depend on the processing

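No member's log2 change turned in sign with a pseudocount of 0.1 or 5 or with the FPKM of both conditions brought to 1 sum. That scaling moved the median of all rows of at least 1 FPKM by -0.10 and the members' median to 0.37, against 0.48. At q of at most 0.01, 1 member rose instead of 3, and 0 other serpins, 1 granule protease and 0 cathepsins fell. With the deposited ratio of at least 1.5 added, 0 other serpins, 1 granule protease and 0 cathepsins fell. In the list of plasminogen activation, clotting and complement, 2 genes then rose, Plaur and the processing enzyme Furin. With a 2-fold limit on the log2(FPKM + 1) scale in place of the test, 1 member was higher and 1 lower. In that setting 0 other serpins, 1 granule protease, 0 cathepsins, 0 inhibitors of other families and 0 receptors were lower. Higher there were 3 cathepsins, 4 inhibitors of other families and 0 receptors. Of the plasminogen, clotting and complement list 2 were higher, again Plaur and Furin. The q limit and the added ratio are stricter by construction, and for the 2-fold limit the cause was not tested. Values of Serpinb1b, Serpinb8 and Serpinf1 rest on few fragments, and the log2 changes with a pseudocount of 0.1 were 0.85, 1.54 and -1.34 in that order. The log2 change of Serpinb2 was 2.45 with a pseudocount of 5. No paired analysis was possible because each condition has 1 value for both replicates.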
